A study of Danio rerio with 20 samples.

Results

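The livers of 8 resting male zebrafish (Danio rerio) were described by RNA sequencing: which genes they expressed most, and which genes varied most from liver to liver. They were taken from a series of 20 liver libraries, 5 in each of 4 groups: males of strain AB JxTu aged 3 or 1 years, each age either exercised in a swim tunnel, where fish hold their place in moving water, or with no perturbation. No allele, transgene or other treatment is given for any of them. The 8 were chosen by the measured level of fabp2 (listed as FABP2), which encodes a fatty acid binding protein of intestine: all resting libraries in which it was at most 100 CPM were taken. CPM are counts scaled to the library's total, here called plain CPM where no further correction was made. They were 3-year replicates 1, 2, 4 and 5 and 1-year replicates 1, 2, 3 and 4, and values of single livers are always given in that order. Because that limit and the ranking of the genes both used measured values, the levels and spreads of the ranked genes are a description and carry no test.

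The limit fell in a wide gap. fabp2 was at 0.174, 0.551, 0.415 and 3.06 CPM in the 3-year livers and 0.424, 5.73, 0.366 and 0.297 CPM in the 1-year livers. Just outside it were 3-year replicate 3, at 504 CPM, and 1-year replicate 5, at 3480.2 CPM. Of the 10 exercised libraries, 5 passed the same limit (2 of 3 years and 3 of 1 year) and were used for comparison, since neither ranking drew on them. Each library is called a liver here. Whether every library is another fish is not in the labels, so the spread between libraries may be partly technical.

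The liver is the main source of the proteins of blood plasma. Its hepatocytes secrete the carriers of iron, haem, lipid and vitamins, the clotting factors, the complement proteins and many protease inhibitors. They also store and release glucose, make and burn fatty acids, make cholesterol and bile acids, and break down amino acids and foreign compounds. In adult zebrafish the pancreas is scattered along the intestine and bile duct, close to the liver, rather than lying in a single compact body. Yolk proteins are a product of female liver under oestrogen.

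The 8 libraries held 33046127 to 47169864 counts each. Between 20891 and 22619 genes had at least 1 count, and between 11655 and 13529 reached 1 CPM. No pair of the 28 was identical. Spearman's rho between livers ran from 0.697 to 0.915 across the 4999 genes that averaged at least 10 CPM. The 2 hepatocyte markers, tfa (transferrin) and fabp10a (the fatty acid binding protein of liver), stood at ranks 1 and 4 by mean CPM. Testis and kidney markers were at or near 0, with summed levels of at most 3.84 and 0.3896 CPM. Of the yolk genes, vtg1 was at most 0.43 CPM, vtg2 at most 3.34 CPM and vtg5 between 2.76 and 34.7 CPM.

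Libraries differed most in pancreas transcripts. The 19 matched exocrine pancreas markers, which encode digestive enzymes and their helpers, were at 0.241, 0.204, 1.16 and 13.4% in the 3-year livers and 0.0208, 5.003, 0.0421 and 15.9% in the 1-year livers, as a share of all counts. The trypsinogen gene prss1 was at 383, 259, 1502 and 15890.4 CPM in the 3-year livers and 37.9, 7293, 62.2 and 25431 CPM in the 1-year livers. The 3 highest livers stood apart, 3-year replicate 5 and 1-year replicates 2 and 4, each with prss1 above 5000 CPM. Results that rest on them are given with and without these 3 livers, a set chosen after the values were seen.

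The liver transcriptome was concentrated in few genes. The 10 most abundant genes of each liver took 26.4 ± 3.56% of its counts (SD, n = 8), from 18.7% in 3-year replicate 5 to 30.2% in 1-year replicate 3. On average 54 ± 8.47 genes held 50% of the counts, from 44 in 3-year replicate 2 to 65 in 3-year replicate 5 and 1-year replicate 2. Without the 3 livers with prss1 above 5000 CPM, the share of the 10 leading genes averaged 28.3%. In all, 12611 genes averaged at least 1 CPM, 4999 at least 10 CPM, 834 at least 100 CPM and 156 at least 1000 CPM. The 4999 genes held 96.6% of all counts.

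Transferrin, the iron carrier of plasma, led the list. tfa was at 61457, 61624, 48564 and 24258 CPM in the 3-year livers and 58635, 58284, 86983 and 47753 CPM in the 1-year livers. It was the most abundant gene in 5 of the 8 livers. In 3-year replicates 2, 4 and 5 apoa1b, one of a pair of genes for the main protein of high-density lipoprotein, stood first. apoa1b was at 55099, 65838, 65116 and 33556 CPM in the 3-year livers and 47649, 43139, 45281 and 27701 CPM in the 1-year livers. The values of the ages overlapped for both genes, and 3-year replicate 5 had the lowest tfa by a wide margin. Relative to tfa, apoa1b was at 89.7, 107, 134 and 138% in the 3-year livers and 81.3, 74.02, 52.1 and 58.01% in the 1-year livers. That ratio was higher in all 4 livers of 3 years than in all 4 of 1 year, a comparison chosen after the values were seen.

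Apolipoproteins, which coat lipoprotein particles, and plasma carriers were the largest groups. The 25 matched apolipoprotein genes took 12.9 ± 2.13% of counts (SD, n = 8) and the 43 plasma carrier genes 13.5 ± 2.51%, with 5 and 8 genes among the 50 most abundant. apoa2 averaged 38659 ± 6783 CPM, apoc1 15921 ± 2134 CPM and apobb.1, a gene for the large structural protein of low-density lipoprotein, 13849 ± 2755 CPM. Beside transferrin, the carriers were led by fetub (fetuin B, a protease inhibitor) at 17675 ± 2785 CPM, hpxa (haemopexin, the haem carrier) at 11541 ± 1525 CPM, CP (ceruloplasmin, which carries copper) at 6863 ± 1515 CPM and serpina1, the alpha-1-antitrypsin gene, at 6813 ± 1893 CPM. Their spread differed: apoc1 ranged from 13139.8 to 20135 CPM and hpxa from 9212 to 13502 CPM, whereas CP ranged from 4807 to 8858 CPM and serpina1 from 4629 to 10349 CPM. For CP this rested on the 3 livers with prss1 above 5000 CPM. Without them CP ranged from 6820 to 8858 CPM, no more widely than hpxa (9671 to 13502 CPM), and serpina1 still ranged from 5329 to 10349 CPM. The second copy of the high-density lipoprotein gene varied more: apoa1a was at 2833, 3396, 554 and 1549 CPM in the 3-year livers and 3469.8, 6383, 3449 and 2800.2 CPM in the 1-year livers. In percent of apoa1b, it was at 5.14, 5.16, 0.8504 and 4.62% in the 3-year livers and 7.28, 14.8, 7.62 and 10.1% in the 1-year livers, lowest in 3-year replicate 4 and highest in 1-year replicate 2.

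Clotting factors took 4.07 ± 0.6802% of counts and complement 4.24 ± 1.33%. The 3 fibrinogen chains, the clot-forming protein, were at 10544 ± 1989 CPM (fga), 7773 ± 1541 CPM (FGB) and 7280.1 ± 1593 CPM (FGG). TPM, a level per length, divides each count by gene length first. On that scale the 3 were close to each other, at 5073 ± 1076, 5202 ± 1149 and 5313 ± 1248 TPM. Prothrombin (f2) and plasminogen (PLG) averaged 2791 ± 393 and 3049 ± 503 CPM. In complement, the central component c3a.1 averaged 13829 ± 3874 CPM, ahead of c9, a part of the membrane attack complex, at 6144 ± 2903 CPM. c9 was at 5015, 10646, 9889.9 and 5943 CPM in the 3-year livers and 4637, 2964, 7095 and 2967 CPM in the 1-year livers. It was highest in 3-year replicates 2 and 4, and the ages overlapped. The summed level of the 26 clotting genes ranged from 29149.7 to 49408 CPM and that of the 31 complement genes from 25532 to 59727 CPM. Without the 3 livers with prss1 above 5000 CPM, the ranges were 40458 to 49408 CPM and 33896 to 59727 CPM.

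Among enzymes, GAPDH, of glycolysis, averaged 4504 ± 693 CPM. The 48 genes of amino acid and urate breakdown took 2.68 ± 0.431% of counts. They were led by hpda, an enzyme of tyrosine breakdown, at 3617 ± 186 CPM, by BHMT, which remethylates homocysteine, at 3589.7 ± 718 CPM, and by AHCY at 3582 ± 582 CPM. uox, the urate oxidase that humans lack, averaged 1739 ± 498 CPM. fabp10a was at 21779.7, 15686, 21725 and 10826 CPM in the 3-year livers and 24177, 23138, 30069 and 17381 CPM in the 1-year livers. It was lowest in 3-year replicate 5 and highest in 1-year replicate 3. The 11 matched genes of the mitochondrial genome, which leave out mt-atp8, took 3.98% to 6.10% of counts. Of these genes 5, led by MT-CO1 at 15850.4 ± 3074 CPM, were among the 50 most abundant. Translation was represented by the elongation factors eef1a1l1, at 8272 ± 964 CPM, and eef2b. The 54 drug metabolism genes took 0.691 ± 0.0472% of counts in all, with cyp2ad2 (985 ± 386 CPM) and cyp2k22 (805 ± 142 CPM) in front.

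Length changed the order. Per length, apoa1b led with 61697 ± 18606 TPM, followed by fabp10a with 59293 ± 18196 TPM, apoa2 with 57170.4 ± 10917 TPM and tfa with 34614 ± 11909 TPM. apobb.1, ninth by CPM with a recovered length of 11495 bases, stood at rank 96 per length, and FN1 (ENSDARG00000006526, fibronectin), with 9160 bases, at rank 168. Of the 50 most abundant genes by CPM, 38 were among the 50 most abundant per length. The 12 that entered included mt-atp8, gpx4a, apom and the ribosomal genes RPLP0 and RPS7.

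Pancreatic digestive enzymes were part of the list of most abundant genes, with 5 exocrine markers among the top 50: prss1, prss59.1, CELA1 (ENSDARG00000017314), ctrb.1 and prss59.2. Each had its highest values in the 3 livers named above. Without those livers 44 of the 50 genes stayed in the top 50, and c3a.2, gpx4a, ambp and RPLP0 were among the 6 that entered. The ages overlapped in plain CPM for 29 of the 30 most abundant genes. The exception was eef1a1l1, which was at 8683, 9337, 8711 and 9469 CPM in the 3-year livers and 7647, 7309, 8253 and 6771 CPM in the 1-year livers. All 3-year livers were above all 1-year livers in plain CPM but not after TMM scaling, a correction for library composition, under which the ages overlapped.

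**Figure D1:**
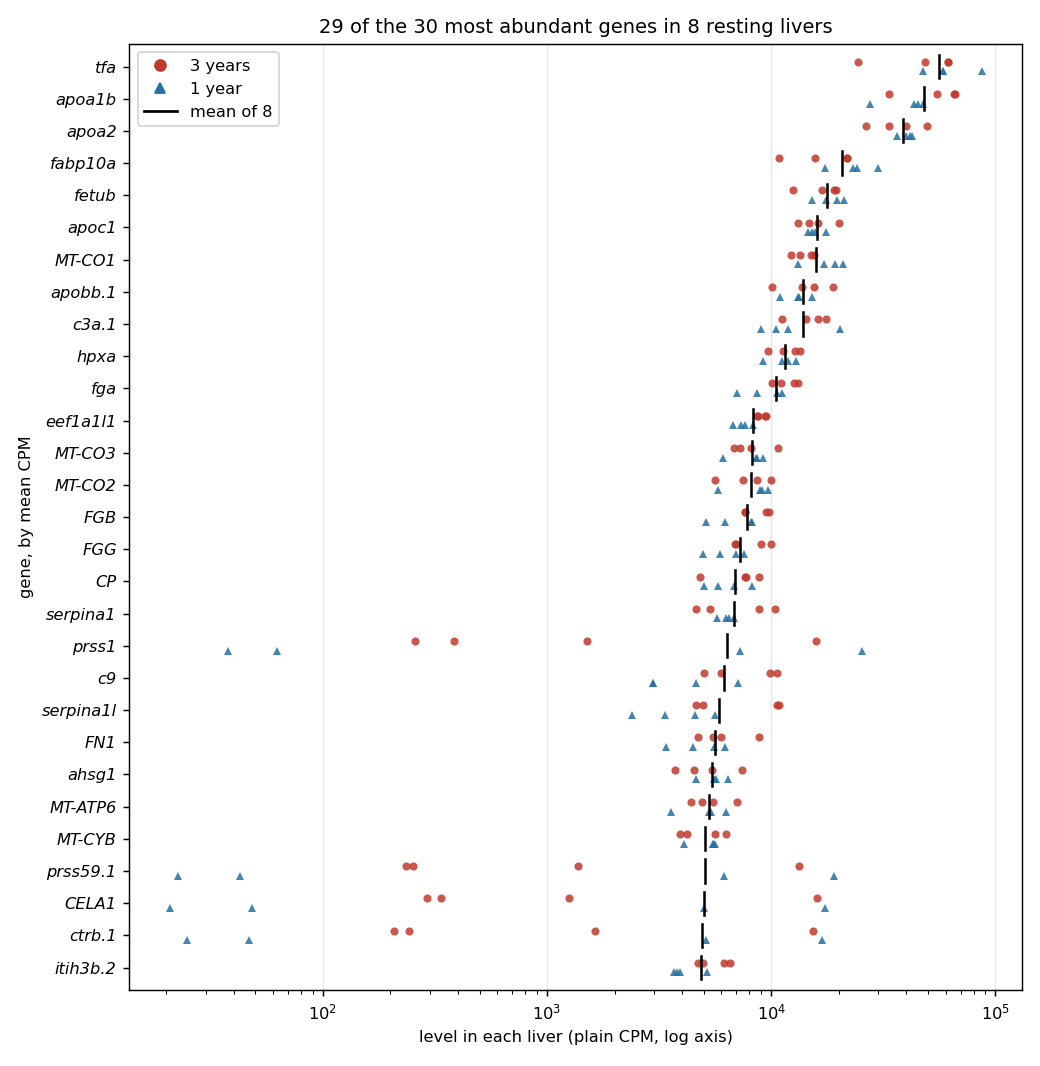
Level of 29 of the 30 most abundant genes in each of the 8 resting livers, in plain CPM on a log axis. Circles are 3-year livers, triangles are 1-year livers and the black bar is the mean of 8. Most genes sit within a narrow band, whereas prss1, prss59.1, CELA1 and ctrb.1 spread over almost the whole axis (prss1 from 37.9 to 25431 CPM).

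Of the other lists, which share members with these, acute phase genes took 5.08 ± 0.9595% of counts, glucose and glycogen genes 2.89 ± 0.422%, and fatty acid oxidation and ketone genes 2.44 ± 0.619% (SD, n = 8). Regulators were expressed at far lower levels than the plasma genes. The 32 genes of the hepatocyte transcription factor list summed to 1091 to 1482 CPM per liver. The most abundant were CEBPD at 173 ± 80.4 CPM, HNF4A, a nuclear receptor central to hepatocyte identity, at 138 ± 28.5 CPM, and XBP1, a regulator of secretory capacity, at 131 ± 17.6 CPM. CEBPD was highest in 3-year replicate 4, at 348 CPM, against 105 to 198 CPM elsewhere. In the bile acid list, CYP7A1, the rate-limiting enzyme of the classic pathway, was at or below 0.912 CPM, whereas CYP8B1 averaged 125 ± 20.7 CPM and the export pump ABCB11 218 ± 42.3 CPM.

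Markers of other liver cells differed in level. The 6 genes matched to the biliary list, 3 of them by exact symbol, summed to 1271 to 2725 CPM, led by the keratin gene krt8 at 1037 ± 352 CPM. Summed endothelial markers ranged from 70.6 to 129 CPM, led by the receptor kdrl, and myeloid markers from 64.8 to 137 CPM. Lymphocyte markers ranged from 2.69 to 23.2 CPM. In bulk tissue, fewer cells of a type and less RNA per cell cannot be told apart. Whether other cells, hepatocytes among them, also expressed these markers was not tested. The red cell gene hbaa1 was at 79.5, 73.4, 259.97 and 47.4 CPM in the 3-year livers and 56.1, 159, 74.2 and 30.1 CPM in the 1-year livers, highest in 3-year replicate 4. Intestine markers summed to 349.9 to 1668 CPM, and 1 of the 11 matched genes averaged at least 100 CPM. The sum did not follow fabp2. It was highest in 3-year replicate 1, where fabp2 was lowest, at 0.174 CPM. In 1-year replicate 2, where fabp2 was highest, at 5.73 CPM, the sum was 797 CPM. Skeletal muscle markers were at 236, 6.47, 10.6 and 9.297 CPM in the 3-year livers and 15.4, 211, 9.64 and 23.4 CPM in the 1-year livers, and were highest in 3-year replicate 1 and 1-year replicate 2.

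Spread was measured as the SD over the 8 livers of log2 CPM, scaled by TMM with a prior count of 2, for the 4999 genes that averaged 10 CPM or more. The median SD was 0.36, and the 10th and 90th percentiles were 0.18 and 0.92. Counting error gave a median SD of 0.046. Within ages the median SD was 0.32. In all, 420 genes (8.4%) had an SD above 1 and 135 (2.7%) an SD above 2.

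The genes were sorted by 3 arrangements of the livers and by a class of genes near 0 in some livers. In 79 of the 4999 genes (1.58%) the 3 highest livers were the same as for prss1, and these were 47 of the 135 genes with an SD above 2 and 36 of the 50 most variable. In 445 genes (8.9%) all 3-year livers were below all 1-year livers, and these were 21 of the 135. In 269 genes (5.38%) all 3-year livers were above all 1-year livers, and these were 4 of the 135. A further 37 genes (0.74%) were below 0.5 CPM in some livers and at least 10 CPM in others without following the 3 arrangements. These were 35 of the 135, a count largely set by the definition, which requires a wide range and names no livers. The remaining 28 of the 135 were in none of these classes. With plain CPM in place of TMM scaling, the 2 age counts were 313 below and 355 above, so that the larger of the 2 age arrangements depended on the scaling. The 3 arrangements were read from the TMM-scaled values that gave the spread, and the limits of the near-0 class from plain CPM. All are counts only.

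**Figure D2:**
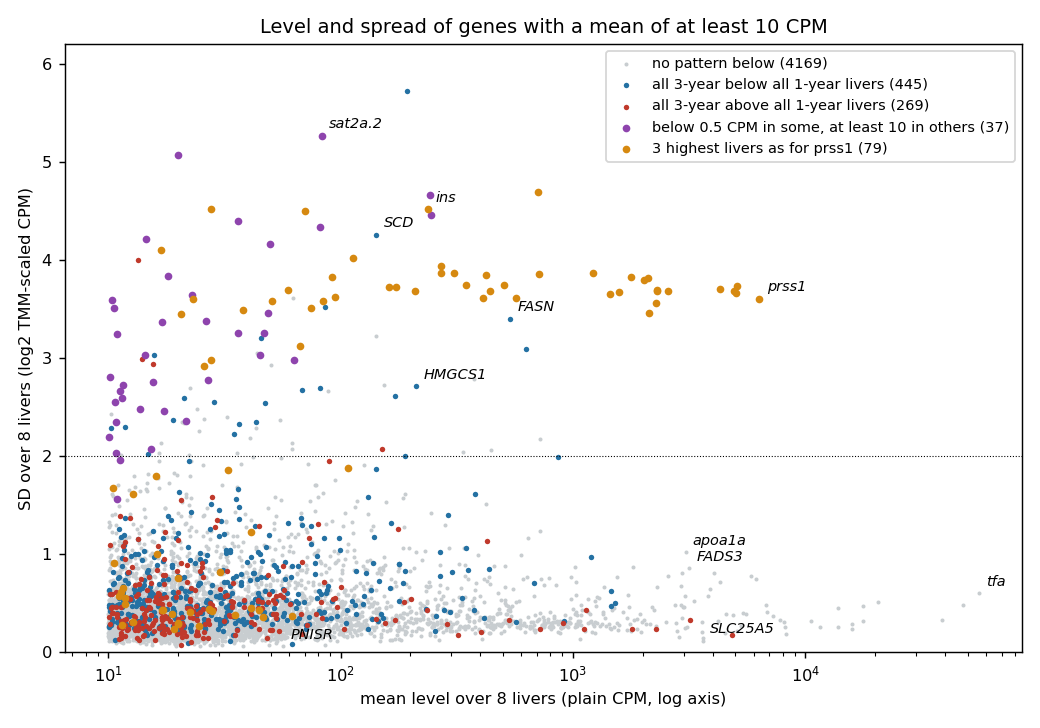
Mean level (plain CPM, log axis) against the SD over 8 resting livers (log2 CPM) for the 4999 genes that averaged 10 CPM or more. Colours mark the 3 arrangements of the livers and the genes near 0 in some livers. The dotted line marks an SD of 2. Of the 79 genes with the 3 highest livers of prss1, 47 lie above that line, prss1 itself at 6357 CPM, and genes near 0 in some livers lie mostly below 100 CPM.

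All 18 exocrine pancreas markers with a mean of at least 10 CPM had the 3 highest livers of prss1, which is 1 of them. The proteases prss59.1 and ctrb.1, the amylase amy2a, the lipase CEL (ENSDARG00000017490) and the carboxypeptidase CPB1 had SDs of 3.73, 3.68, 3.68, 3.79 and 3.81. Their levels kept different ratios in different livers. In percent of prss1, prss59.1 was at 65.6, 90.95, 91.5 and 83.6% in the 3-year livers and 59.4, 84.7, 69.1 and 75.2% in the 1-year livers. The peptidoglycan recognition gene pglyrp6, in percent of prss1, was at 1.62, 1.61, 6.39 and 1.43% in the 3-year livers and 10.3, 16.7, 6.14 and 7.16% in the 1-year livers. The chymotrypsinogen ctrb.2, in percent of ctrb.1, was at 9.27, 6.42, 0.586 and 1.13% in the 3-year livers and 2.93, 14.996, 5.74 and 8.72% in the 1-year livers. prss59.1 stayed within a narrow band, whereas the other ratios were both highest in 1-year replicate 2 and were low in 3-year replicate 5, the liver with the second highest prss1. The 3 ratios were chosen after the values were seen, and genes with near-identical copies may share reads.

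Islet hormone genes also varied widely. ins (insulin) was at 0.262, 0.657, 9.903 and 1376 CPM in the 3-year livers and 0.999, 25.8, 1.097 and 486 CPM in the 1-year livers, with an SD of 4.52. The somatostatin genes sst2, sst1.2 and SST (SDs 4.51, 4.39 and 4.16), the glucagon gene GCG (4.10) and gip, an incretin hormone gene (4.33), were also among the 30 most variable genes. gip was at 0.843, 1.27, 21.7 and 533 CPM in the 3-year livers and 0.0605, 22.3, 0.137 and 71.7 CPM in the 1-year livers. All of these hormones were highest in 3-year replicate 5 and second in 1-year replicate 4, the reverse of the order of prss1. In percent of prss1, ins was at 0.0683, 0.254, 0.659 and 8.66% in the 3-year livers and 2.63, 0.353, 1.76 and 1.91% in the 1-year livers. In the 5 livers with prss1 below 5000 CPM, ins averaged 2.58 CPM and its SD was 1.93. On the TMM scale gip, sst1.2 and SST missed the exact arrangement of prss1, since 3-year replicate 4 and 1-year replicate 2 lay close together, and are counted with the near-0 genes.

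Leaving out the 3 livers with prss1 above 5000 CPM kept 12 of the 50 most variable genes, and the count of genes with an SD above 2 was then 112 of 4925. sat2a.2 (SD 5.47 without them), named as an acetyltransferase gene, and SCD (4.14), the stearoyl-CoA desaturase that puts a double bond into fatty acids, then led the genes that have a full symbol. The exocrine markers still varied among the other 5 livers, with a median SD of 2.34, beside 3.70 in all 8. The median over all genes was 0.36 in both.

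Of the 20 lists of functions, fatty acid synthesis had the widest range of summed levels between livers. Summed over the list of 27 matched genes, fatty acid synthesis was at 1731, 893, 627 and 845 CPM in the 3-year livers and 9403, 7588, 1945 and 6840.2 CPM in the 1-year livers. The highest liver was 14.99 times the lowest, compared with 8.61 times for cholesterol synthesis, 1.69 times for coagulation and 1.201 times for drug metabolism. FASN, the fatty acid synthase, was at 23.1, 10.96, 8.11 and 9.998 CPM in the 3-year livers and 1706, 1551, 137 and 866 CPM in the 1-year livers. ACACA, the acetyl-CoA carboxylase that makes its substrate, was at 55.1, 17.1, 9.25 and 32.4 CPM in the 3-year livers and 1829.7, 1742, 320.3 and 1043 CPM in the 1-year livers. SCD was at 5.55, 0.361, 0.544 and 0.987 CPM in the 3-year livers and 588, 182, 15.2 and 350.1 CPM in the 1-year livers. In all 3 genes every 3-year liver was below every 1-year liver, and among the 1-year livers replicate 3 was the lowest. ELOVL6, which lengthens fatty acids, overlapped between ages, with 3-year replicate 1 at 373 CPM, against 1-year replicate 3 at 116 CPM.

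Cholesterol synthesis was at 562, 829, 609.9 and 953 CPM in the 3-year livers and 4843, 3368, 2066 and 1999 CPM in the 1-year livers over its 26 matched genes. Of its 23 members with a mean of at least 10 CPM, 17 had all 3-year livers below all 1-year livers, beside 8.9% of all genes. HMGCS1, an early enzyme of the pathway, was at 6.05, 13.9, 16.4 and 9.58 CPM in the 3-year livers and 951, 537, 58.8 and 105 CPM in the 1-year livers. FDPS, which makes farnesyl pyrophosphate, was at 27.1, 8.06, 8.19 and 7.69 CPM in the 3-year livers and 672, 403, 133 and 119 CPM in the 1-year livers. Both were highest in 1-year replicate 1. The low-density lipoprotein receptor gene ldlra, the most abundant member, did not share that order: it was at 36.3, 459.7, 265 and 676 CPM in the 3-year livers and 209, 219, 844 and 661 CPM in the 1-year livers. The age order of this list and of fatty acid synthesis is a pattern already seen in earlier results of these data and is not independent support for an age difference.

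Other lists held smaller numbers of such genes. All 3-year livers were below all 1-year livers in 6 of 20 fatty acid synthesis genes that averaged 10 CPM or more. The same held for 10 of 26 genes of folding in the endoplasmic reticulum, 10 of 39 of amino acid and urate breakdown and 7 of 19 of the circadian clock. The share over all 4999 genes was 8.9%. The chaperone HSPA5 (BiP) was at 97.8, 72.3, 67.8 and 95.3 CPM in the 3-year livers and 1431, 813, 235 and 214 CPM in the 1-year livers. Its partner HSP90B1 overlapped between ages, at 1332, 135, 257 and 382 CPM in the 3-year livers and 1747, 1221, 358 and 341 CPM in the 1-year livers. Both genes were highest among the 3-year livers in replicate 1. There HSP90B1 was within the range of the 1-year livers, whereas HSPA5 was below all of them. In the opposite direction, 4 of 11 bile acid genes, 5 of 23 hepatocyte transcription factors and 3 of 13 genes of iron, zinc and copper had all 3-year livers above all 1-year livers, beside 5.38% of all genes. Neither coagulation (24 genes) nor complement (29 genes) held a gene of either age arrangement, though 1 complement gene was above in plain CPM. In plain CPM the counts of 3-year livers below were 17 for cholesterol synthesis, 7 for fatty acid synthesis and 8 for endoplasmic reticulum folding. They were 7 for amino acid and urate breakdown and 7 for the clock, beside 313 of all 4999 genes.

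**Figure D3:**
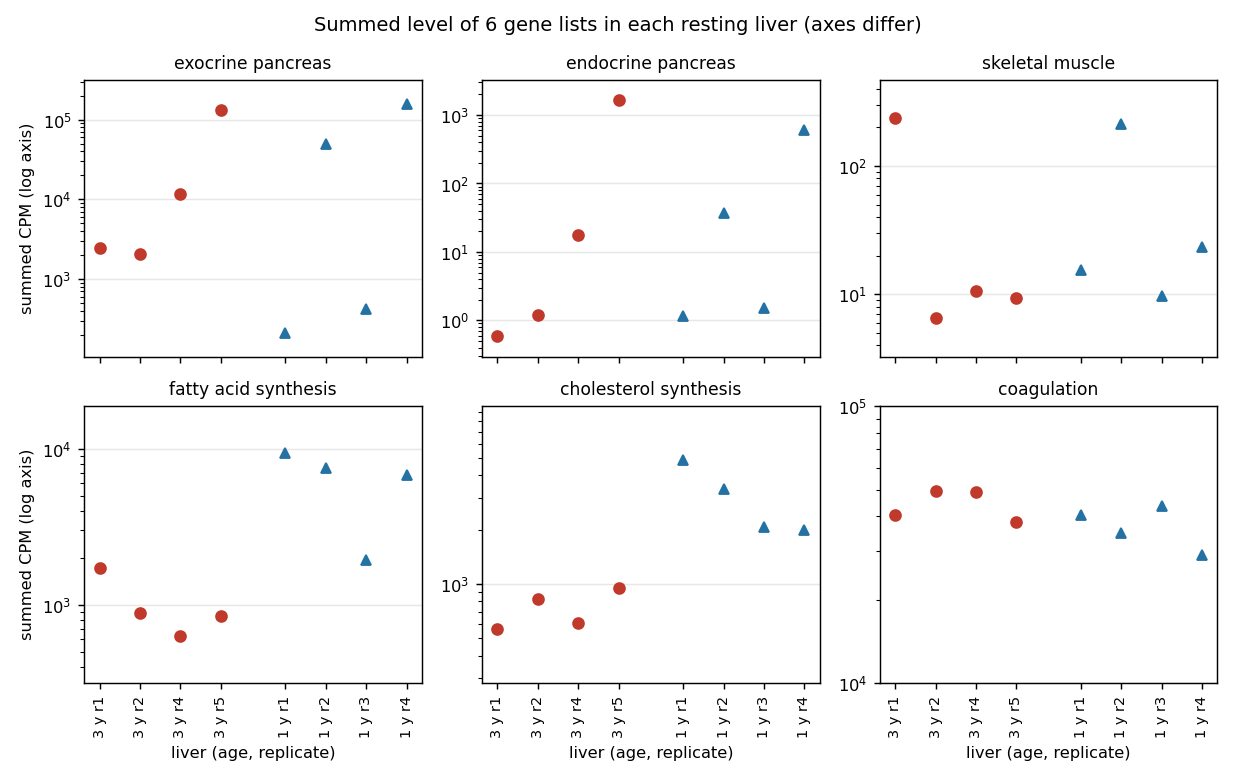
Summed plain CPM of 6 gene lists in each resting liver, on log axes whose ranges differ between panels. Circles are 3-year and triangles 1-year livers. The pancreas lists are highest in 3-year replicate 5 and 1-year replicates 2 and 4, muscle in 3-year replicate 1 and 1-year replicate 2, and both lipid lists are lower in all 4 livers of 3 years than in all 4 of 1 year, whereas coagulation stays between 29149.7 and 49408 CPM.

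A further 37 genes were near 0 in some livers and clearly expressed in others. sat2a.2 was at 168, 0.106, 0.104 and 0.156 CPM in the 3-year livers and 211, 171, 0.137 and 115 CPM in the 1-year livers. It was at or above 115 CPM in 4 livers and at or below 0.156 CPM in the other 4, with no liver between. In several genes a single liver was near 0. lgals3bp.2 was at 0.15997 CPM in 1-year replicate 3 and from 49.2 to 111 CPM in the other 7. acot15, named as an acyl-CoA thioesterase gene, was at 0.0872 CPM in 3-year replicate 1 and from 22.1 to 49.5 CPM in the others. SLC16A6 (ENSDARG00000102793), a carrier of the monocarboxylate family, was at 0.02597 CPM in 3-year replicate 5 and from 24.5 to 68.9 CPM in the others. The number of the 37 genes below 0.5 CPM was 11, 12, 11 and 7 in the 3-year livers and 9, 4, 10 and 2 in the 1-year livers. The low livers differed from gene to gene, and 18 of the 37 were also near 0 in some and at least 10 CPM in other exercised livers, beside 57 of the 4999 genes (1.14%). Except for sat2a.2, amy2al2, sst1.2, gip and SST, these genes were chosen after their values were seen, and 13 of the 37 have no symbol or a placeholder.

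**Figure D4:**
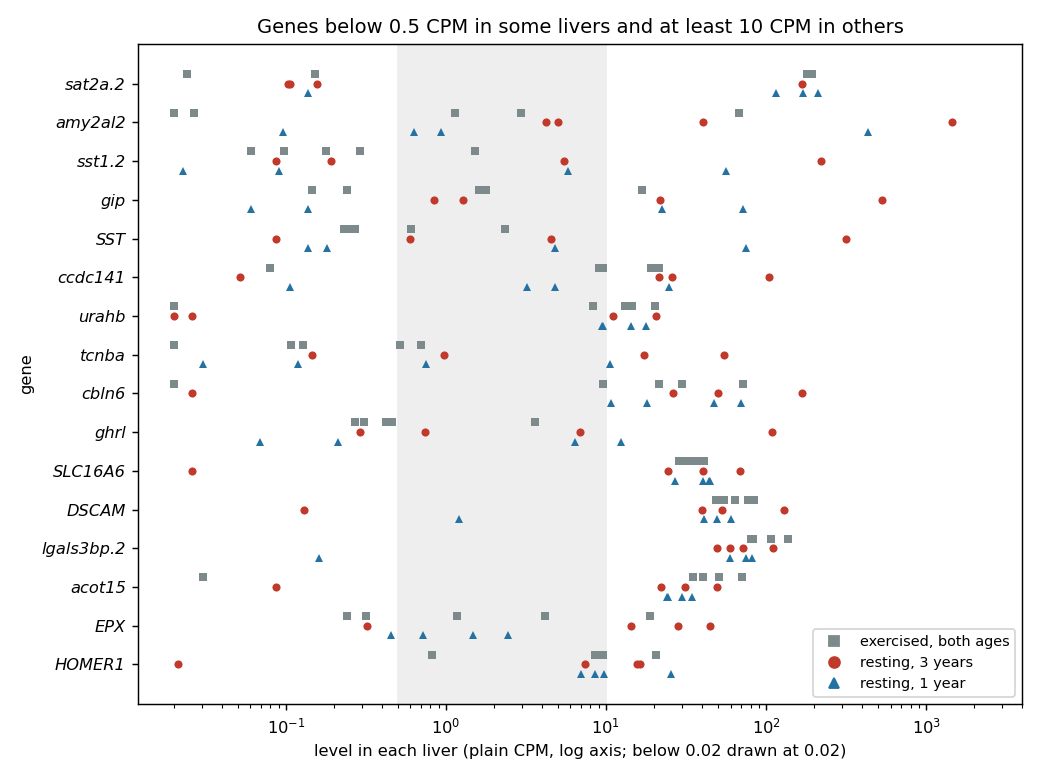
Level of the 16 most variable genes with a symbol among those below 0.5 CPM in some resting livers and at least 10 CPM in others, in plain CPM on a log axis. Grey squares are the 5 exercised livers, red circles the 3-year and blue triangles the 1-year resting livers, and the shaded band runs from 0.5 to 10 CPM. sat2a.2, SLC16A6, lgals3bp.2 and acot15 have no resting liver inside the band, whereas the hormone genes sst1.2, gip, SST and ghrl each have livers inside it.

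At the other end, 686 of the 4999 genes had an SD below 0.2. Among the 1415 genes that averaged 50 CPM or more, the 10 steadiest with a symbol were PNISR (SD 0.06), RBM39 (0.08), ARHGDIA (0.08), metap2b (0.09), SEC62 (0.11), cyp3c1 (0.11), SLC25A5 (0.12), GSPT1 (0.12), chd4b (0.12) and ITM2B (0.12). PNISR and RBM39 encode proteins linked to RNA splicing, SEC62 a part of the protein import machinery of the endoplasmic reticulum, and SLC25A5 the mitochondrial exchanger of ADP and ATP. SLC25A5 was also among the 50 most abundant genes, at 4121, 3624, 3579.8 and 4164 CPM in the 3-year livers and 3889, 3403, 3160.3 and 3152 CPM in the 1-year livers. Its values overlapped between ages. hpda, the tyrosine breakdown enzyme, was steadier than SLC25A5 in plain CPM, at 3501, 3894, 3392 and 3626 CPM in the 3-year livers and 3855, 3635, 3407 and 3625 CPM in the 1-year livers, an observation made after its values were seen.

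Genes in common use for normalising expression were steady but not the steadiest. Of 28 matched reference genes, 18 averaged at least 10 CPM, with a median SD of 0.29, beside 0.36 for all genes. eef1a1l1 and GAPDH had SDs of 0.19 each, whereas HPRT1 (0.56) and ywhaz (0.76) were above the median. actb2, the cytoskeletal actin gene, had an SD of 0.29. The order depends on scaling: actb2 lay at the 35.5 percentile of SDs with TMM and at the 12.3 percentile in plain CPM. The interferon list (median SD 0.25, 5 genes) and coagulation (0.32, 24 genes) were also below the median of all genes, and fatty acid synthesis (1.15, 20 genes) and cholesterol synthesis (1.57, 23 genes) above it.

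The 5 exercised livers under the same fabp2 limit gave both measures in libraries that the rankings did not use. The same 10 genes were the 10 most abundant in both sets, and 44 of the 50 most abundant resting genes were among the 50 most abundant in exercised livers. tfa averaged 66981 CPM in exercised and 55945 CPM in resting livers, and fabp10a 16905 and 20598 CPM. prss1 averaged 1153 CPM in exercised livers, where its rank was 121, and 6357 CPM in resting livers, where its rank was 20. The higher resting mean of prss1 came from the 3 livers with prss1 above 5000 CPM. In the 5 other resting livers prss1 averaged 449 CPM, below the exercised mean, tfa 63453 CPM and fabp10a 22687 CPM. Complement summed to between 21582 and 110618 CPM in exercised and between 25532 and 59727 CPM in resting livers. The upper end came from the 2 exercised livers of 3 years, at 82006 and 110618 CPM. In the same 2 livers the summed myeloid markers were at 517 and 623 CPM, beside at most 137 CPM in any resting liver, and their part in the complement level was not tested.

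Genes of wide spread at rest were mostly of wide spread in exercised livers too. Of the 50 most variable resting genes, 49 had an SD above 1 over the exercised livers, beside 8.94% of the 4999 genes, and 35 were among the 50 most variable there. Their median SD was 4.08 over exercised livers, beside 0.32 for all genes. Of the 50 genes, 36 had the same 3 highest resting livers as prss1, so the members are not independent of each other. prss1 and its group varied in both, from 1.78 to 4239 CPM in exercised livers and from 37.9 to 25431 CPM in resting livers. ins was at most 7.35 CPM in any exercised liver and had an SD of 2.79 there, beside 4.52 at rest, and in the 5 resting livers with prss1 below 5000 CPM it was at most 9.903 CPM. Of the 50 steadiest resting genes, 45 were below the exercised median of 0.38 for genes of at least 50 CPM, but 2 were among the 50 steadiest there. cyp3c1 had an SD of 0.67 over exercised and 0.11 over resting livers, and PNISR 0.07 and 0.06.

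**Figure D5:**
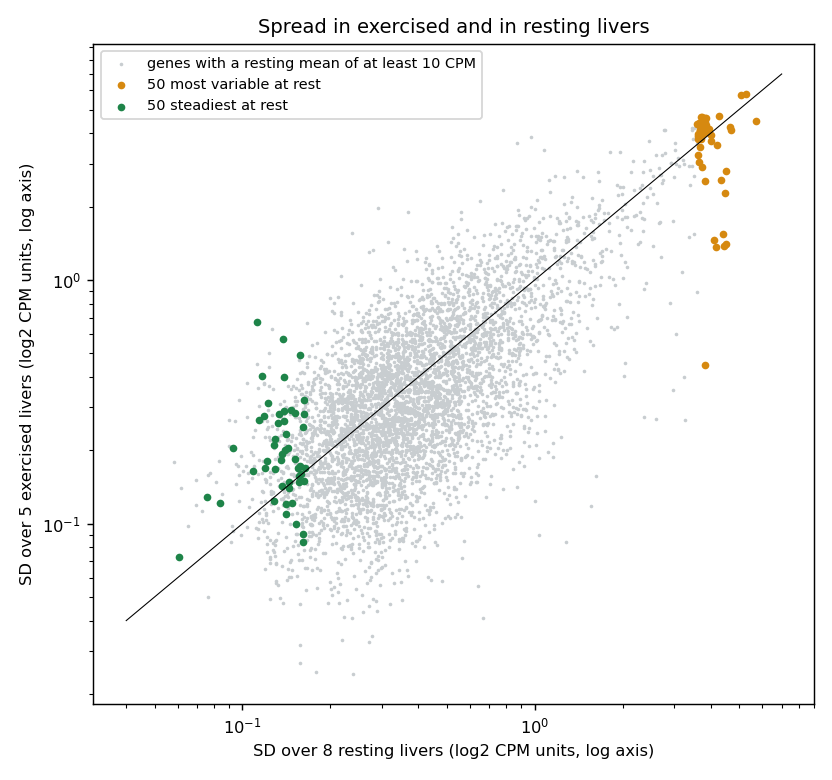
SD of log2 CPM over the 5 exercised livers (vertical) against the SD over the 8 resting livers (horizontal), both on log axes, for genes that averaged 10 CPM or more at rest. The line marks equal SDs. The 50 most variable resting genes (orange) are above an SD of 1 in exercised livers with 1 exception, and the 50 steadiest (green) range widely there.

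Levels were also compared between the exercised and the resting livers by a test over all genes, with age as a term. Of 18120 genes, 0.0% (0 genes) passed an adjusted p of 0.05 in either direction by edgeR's quasi-likelihood test; the smallest adjusted p was 0.0718, and 2050 genes had an unadjusted p under 0.05. DESeq2 on the same libraries called 320 genes, 156 higher and 164 lower in exercised livers. The 3 higher and the 3 lower genes of smallest p did not pass this edgeR test. Each of them passed an adjusted p of 0.05 under at least 1 of the alternatives run and failed under at least 1 other. Their levels are CPM with TMM scaling. FOXO1 (ENSDARG00000099555), a regulator of fasting metabolism, averaged 123 ± 59.3 CPM in exercised and 18.3 ± 9.52 CPM in resting livers (SD, n = 5 and 8; log2 fold change 3.00 ± 0.40 SE, edgeR adjusted p = 0.0718). cyp2k31, a cytochrome P450 gene, averaged 1.17 ± 0.552 CPM in exercised and 20.6 ± 10.1 CPM in resting livers (SD, n = 5 and 8; log2 fold change -4.18 ± 0.59 SE, edgeR adjusted p = 0.0718). SLC40A1, the iron exporter ferroportin, averaged 91.4 ± 16.1 CPM in exercised and 32.7 ± 12.98 CPM in resting livers (SD, n = 5 and 8; log2 fold change 1.53 ± 0.23 SE, edgeR adjusted p = 0.106). ZBTB16, a zinc finger transcription factor gene, averaged 90.96 ± 66.3 CPM in exercised and 5.15 ± 3.64 CPM in resting livers (SD, n = 5 and 8; log2 fold change 3.83 ± 0.63 SE, edgeR adjusted p = 0.106). srsf5a, a splicing factor gene, and slc25a39, a mitochondrial carrier gene, had log2 fold changes of -0.73 and -1.92, each with an edgeR adjusted p of 0.125. In plain CPM, cyp2k31 was at 0.912 CPM in resting 3-year replicate 2, inside the exercised range of 0.544 to 1.82 CPM. The other resting livers were at 10.6 to 29.2 CPM. By DESeq2 cyp2k31 had an adjusted p of 9.6e-14.

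The same held for the gene lists, none of which had a member that passed edgeR's test. The median log2 fold change, exercised over resting, was -0.66 over 25 cholesterol synthesis genes (4 of them above 0) and -0.65 over 30 endoplasmic reticulum genes (2 above 0), beside -0.0028 over all genes. It was 0.20 over 35 clock genes, of which 13 had an unadjusted p under 0.05 by edgeR's test, beside 2050 of all 18120 genes. Such genes numbered 4 of 25 for cholesterol synthesis, 8 of 30 for the endoplasmic reticulum and 5 of 13 for myeloid markers. They numbered 0 of 28 for reference genes and 0 of 19 for acute phase genes. The intestine list is left out of these counts, since it holds fabp2, by which both groups were chosen. For exocrine pancreas markers the median log2 fold change was -3.69 with 0 of 19 above 0 and 0 with an unadjusted p under 0.05. For the 4 endocrine pancreas markers it was -5.91, with 0 above 0 and 3 with an unadjusted p under 0.05. Those 4 markers summed to 0.454 to 9.93 CPM in exercised livers and to 0.581 to 1639 CPM in resting livers, of which the 5 with prss1 below 5000 CPM reached at most 17.5 CPM. The summed exocrine level ranged from 14.9 to 28422 CPM in exercised and from 208 to 159284 CPM in resting livers, and the groups overlapped. With 5 and 8 livers and spreads of this size, a gene that did not pass is not shown to be alike in the groups.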

How the data were processed

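RNA was sequenced from livers of male zebrafish. The TruSeq RNA Library Prep Kit v2 was used, per the labels' protocols; it does not mark strand, so overlapping and antisense genes cannot be separated. The submitters' processing notes name bcl2fastq 1.8.4, STAR 2.4.1d, featureCounts 1.4.6-p4 and genome build GRCz10. How featureCounts treated reads that match several genes is not stated there. The authors deposited raw counts, whole numbers for each gene, and RPKM. In the deposited RPKM values had been divided by the 20 library totals in turn down the table, not each by its own library's. Over 1399 genes the gene length implied by counts and RPKM had a median coefficient of variation of 0.137 with each library's own total. With the totals taken in turn, the largest coefficient of variation of any of these genes was 0.000126. The RPKM were therefore used to recover gene lengths, for 26860 genes, and for nothing else.

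The table holds 32105 genes, 26269 with a symbol in the name table used here; 4144 share a symbol with another gene, and those named are given with their identifier. Coordinates and sequences are not used here. Levels are plain CPM, TPM from the recovered lengths, and log2 CPM with TMM scaling (edgeR 4.0.16, R 4.3.3, prior count 2). Replicate numbers follow the order of the samples. Members and gene lists (20 of functions, 14 of markers) were chosen with earlier results of these data known. Named are the 30 most abundant and 30 most variable genes, the 10 steadiest, up to 5 of the most abundant members of a list and, of the test, the 3 rises and 3 falls of smallest p with a mean of at least 10 CPM, all without placeholder symbols (9 were passed over in the spread ranking and 1 in the steady one); others are said to be chosen after their values were seen. Some further genes named in the text, CYP7A1, CYP8B1, ABCB11, HPRT1, ywhaz, f2 and mt-atp8 among them, fall outside the rule and were chosen after their values were seen. Exercised livers were tested against resting livers with edgeR's quasi-likelihood test (filterByExpr, Benjamini-Hochberg over 18120 genes, age as a term), with DESeq2 1.42.0 as an alternative. The SE of a log2 fold change was derived from that edgeR test, as the size of the fold change divided by the square root of its F statistic. The edgeR test was also run on simulated counts that held no age difference, and no result of that run is used here. A few genes are not reported here.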

Additional observations from a re-analysis of the deposited data

Results flagged for a closer look

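Of 96 values checked over the 8 resting livers for a single liver lying far from the others (a gap to its nearest neighbour, relative to the whole range, past Dixon's limit, which chance gives in about 1 of 20 groups), 6 were found. Of these, 5 were of 3-year replicate 5: 13529 genes at 1 CPM or more, beside 11655 to 12332 in the other 7 livers; 18.7% of counts in the 10 most abundant genes, beside 24.9% to 30.2%; tfa at 24258 CPM, beside 47753 to 86983 CPM; apoa2 at 26410.4 CPM, beside 33502 to 49343 CPM; and fetub at 12526 CPM, beside 15154 to 21015 CPM. That liver also had 13.4% of its counts in exocrine pancreas markers, the second highest share, and the highest ins; their part in these values was not tested. In 1-year replicate 4, with the highest share of exocrine markers (15.9%), tfa was the second lowest, at 47753 CPM. The remaining value was chd4b, one of the steadiest genes, at 58.3 CPM in 3-year replicate 4, beside 73.5 to 93.4 CPM in the others.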

How the results depend on the processing

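The abundance ranking kept between 38 and 50 of its 50 genes under all alternatives run, and 46 to 50 when any 1 liver was left out. Genes holding 50% of the counts averaged 65.4 with all 10 resting livers, beside 54. The spread ranking kept 11 of its 50 genes with all 10 resting livers, 12 without the 3 livers with prss1 above 5000 CPM (chosen after seeing the data), 33 by coefficient of variation, and 40 to 48 without any 1 liver. Genes with an SD above 2 numbered 346 with a mean of at least 1 CPM, 67 with at least 50 CPM and 262 with all 10 resting livers, beside 135. The steadiest genes were the least settled: of 50, 33 were kept with SDs within ages, 24 in plain CPM, 22 without the 3 livers, 6 with a mean of at least 10 CPM, and 24 to 43 without any 1 liver, lowest without 3-year replicate 4 (24) and replicate 5 (25). Counts of all 3-year livers below, all above and prss1-like genes were 313, 355 and 84 in plain CPM and 474, 204 and 72 with DESeq2 size factors, both added after seeing the data. In the exercise test edgeR called 114 genes (64 higher, 50 lower) in 1-year livers alone, 3 in 3-year livers alone, 222 (125 higher, 97 lower) with all 20 libraries, 16 with a mean of at least 10 CPM, 4 with no age term, 2 with no filter on low counts, 0 with DESeq2 size factors, 0 without the 3 livers, and 0 to 2 without any 1 library (1 without resting 3-year replicate 1, 2 without resting 3-year replicate 2 and 1 without exercised 3-year replicate 3), and DESeq2 called 320; the cause was not tested. Of values of single genes, 982 stayed as they were, 43 moved (levels by more than the SD between livers, SDs by over 1.5 times), and 27, all of the exercise test, passed only under the alternative; none changed direction. No paired analysis was possible because the labels give no replicate numbers. Counting error (median SD 0.046 on the log2 scale) was small beside the spread between livers (0.36), and other technical sources of spread were not measured.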

Other observations

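Further genes of metabolism, iron and immunity also varied widely; all were chosen after their values were seen. cbln8, a cerebellin family gene, was at 11225, 2783, 3998 and 2899.7 CPM in the 3-year livers and 2884, 1803, 4385 and 2379 CPM in the 1-year livers, far highest in 3-year replicate 1. crp5, a C-reactive protein gene, was at 331, 1719, 1454 and 259.9 CPM in the 3-year livers and 485, 216, 1269 and 16.3 CPM in the 1-year livers, lowest in 1-year replicate 4. mhc1uba, a class I histocompatibility gene, was at 16.5, 3.48, 381 and 3.56 CPM in the 3-year livers and 4.81, 5.83, 21.3 and 3.99 CPM in the 1-year livers, highest in 3-year replicate 4, the liver that also had the highest hbaa1 and CEBPD. PCK1, the gluconeogenic carboxykinase, was at 12.5, 166, 808 and 412 CPM in the 3-year livers and 225, 317, 598 and 1009.6 CPM in the 1-year livers, with the lowest value in 3-year replicate 1. hamp, the iron hormone hepcidin, was at 235, 51.2, 104 and 249 CPM in the 3-year livers and 34.7, 4.97, 13.1 and 23.02 CPM in the 1-year livers, and every 3-year liver was above every 1-year liver. CPT1B, a carnitine palmitoyltransferase of fatty acid import into mitochondria, had the same order, at 248, 393, 180.3 and 195 CPM in the 3-year livers and 22.2, 6.61, 131 and 32.9 CPM in the 1-year livers.

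FADS3, listed under that symbol and annotated as a fatty acid desaturase, was among the 50 most abundant genes, at 4047, 2293, 2451 and 865 CPM in the 3-year livers and 3134, 4417, 4216 and 3856 CPM in the 1-year livers, lowest in 3-year replicate 5. UCP1, the uncoupling protein gene, was also in that list, at 3723, 4109, 4579 and 3148 CPM in the 3-year livers and 4722, 5809, 5064 and 5369 CPM in the 1-year livers. In plain CPM every 3-year liver was below every 1-year liver for UCP1, but not after TMM scaling. It averaged 7915 CPM in the 5 exercised livers and 4565 CPM in the 8 resting livers. Like every other gene, UCP1 did not pass edgeR's test between these groups.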
